A study of Mus musculus with 67 samples.

Results

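The interferon regulatory factors (IRFs) are a family of transcription factors, and their mRNAs were followed here in mouse monocytes and in the marrow progenitors that give rise to them. The members were taken by gene symbol: Irf1, Irf2, Irf3, Irf4, Irf5, Irf7, Irf8 and Irf9, which are 8 of the 24421 genes listed in each of 3 expression tables. RNA was captured on oligo-dT beads from cells sorted by flow cytometry and sequenced in 67 libraries, which the labels place in 28 groups. The 7-week table holds 25 libraries of C57BL/6 mice aged 7 weeks. Its bone marrow groups are the monocyte and dendritic cell progenitor (MDP, 4 libraries), the common monocyte progenitor (cMoP, 4), Ly6C+ monocytes (3) and Ly6C- monocytes (4), and its blood groups are Ly6C+ (4), Ly6Cint (3) and Ly6C- (3) monocytes. The knockout table holds 16 libraries in pairs: MDP, cMoP and Ly6C+ monocytes from the marrow of C57BL/6 mice aged 8 weeks, and blood monocytes of mice of mixed background aged 16 weeks that were labelled wt (Ly6C+, Ly6Cint, Ly6C-) or ko (Ly6C+, Ly6Cint). The series title names C/EBPb, a transcription factor encoded by Cebpb. The labels do not say in which cells it was deleted, and no library is labelled as ko Ly6C- cells. The transfer table holds 26 libraries in pairs, all from C57BL/6 mice aged 8 weeks: marrow Ly6C+ monocytes before transfer, transferred cells recovered from blood or spleen after 24, 36 or 48 h, and Ly6C+, Ly6Cint and Ly6C- cells of the hosts' own blood and spleen at 24 h, whose titles give the level of Gr1. Blood in that table was sorted after ficoll, spleen after ACK lysis and marrow after CD115 enrichment, so tissue and preparation cannot be told apart in it. The labels do not say that replicates came from separate animals, so p-values measure the spread between these libraries, which may be technical. Steps that follow each other share libraries, because the group that ends one begins the next. The labels were set against marker genes: the 10 monocyte markers summed to 3898 to 8494 RPM (reads per 1000000) in the 24 monocyte and graft groups, and the 8 progenitor markers to 2503 to 8723 in the 4 MDP and cMoP groups against 756 at most elsewhere. The monocyte sum is given without that of the progenitors, so it does not show the 2 kinds apart. The monocyte gene Ly6c2 was at 3205 to 3818 RPM in cMoP and 3732 to 4656 in marrow Ly6C+ cells at 7 weeks.

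IRFs share a DNA-binding domain that reads the letters GAAA, and pairs of such sites form the interferon-stimulated response element. Irf3, Irf5 and Irf7 are present in resting cells as latent proteins that kinases activate downstream of nucleic acid sensors and toll-like receptors, after which they switch on interferon genes. Irf9 joins Stat2 in the complex that answers type I interferon, and Irf7 is one of the genes that complex raises. Irf1 is an activator induced by interferon gamma and Irf2 an antagonist of it. Irf4 and Irf8 are the members of blood cell fate: they bind composite sites with PU.1 (Spi1) or with BATF factors, Irf8 being needed for monocyte and dendritic cell progenitors and Irf4 being known in dendritic cell and macrophage subsets. Classical Ly6C+ monocytes leave the marrow for the blood and convert there, through Ly6Cint cells, into Ly6C- cells that patrol vessels.

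The promoters of 4 members are shown because the values below turn on them or because they hold response elements of the pathway. Each is the 300 bases from 250 before to 50 after a transcription start in RefSeq (GRCm38.p6), written 5′ to 3′ along the gene, with matches in capitals. All 8 members had an entry, 11 in all. Both strands were searched for the interferon-stimulated response element GAAANNGAAA, the gamma-activated site TTCNNNGAA, and the composite site GGAANNGAAA of PU.1 with Irf4 or Irf8, found in 3.44%, 8.30% and 2.72% of 32851 RefSeq mouse promoters of the same length.
Irf1 (chr11:53769764-53770063, + strand): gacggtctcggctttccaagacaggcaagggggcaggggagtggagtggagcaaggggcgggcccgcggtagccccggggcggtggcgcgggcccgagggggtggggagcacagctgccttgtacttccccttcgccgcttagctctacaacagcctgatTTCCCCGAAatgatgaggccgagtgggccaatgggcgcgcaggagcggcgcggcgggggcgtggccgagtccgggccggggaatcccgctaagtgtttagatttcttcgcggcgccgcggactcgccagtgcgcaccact
Irf2 (chr8:46739495-46739794, + strand): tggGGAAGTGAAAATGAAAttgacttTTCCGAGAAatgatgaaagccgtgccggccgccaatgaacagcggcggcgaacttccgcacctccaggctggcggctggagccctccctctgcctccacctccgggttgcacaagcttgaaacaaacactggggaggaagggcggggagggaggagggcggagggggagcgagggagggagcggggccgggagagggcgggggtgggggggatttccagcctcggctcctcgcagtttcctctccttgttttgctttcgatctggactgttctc
Irf8 (chr8:120736108-120736407, + strand): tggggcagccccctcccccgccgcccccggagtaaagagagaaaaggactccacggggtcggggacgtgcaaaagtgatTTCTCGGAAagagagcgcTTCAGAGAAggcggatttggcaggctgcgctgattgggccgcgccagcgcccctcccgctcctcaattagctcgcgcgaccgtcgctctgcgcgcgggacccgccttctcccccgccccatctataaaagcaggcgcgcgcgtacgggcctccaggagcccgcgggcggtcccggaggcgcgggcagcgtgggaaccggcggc
Irf7 (chr7:141266375-141266674, - strand): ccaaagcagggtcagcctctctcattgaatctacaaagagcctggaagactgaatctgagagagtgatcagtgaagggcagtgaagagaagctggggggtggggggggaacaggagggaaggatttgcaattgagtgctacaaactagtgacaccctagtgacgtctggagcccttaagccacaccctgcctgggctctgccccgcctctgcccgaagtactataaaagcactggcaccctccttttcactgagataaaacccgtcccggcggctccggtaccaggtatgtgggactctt
In Irf1 the capitals mark a gamma-activated site, TTCCCCGAA, whose first base lies 90 bases before the start. In Irf2 the first run in capitals is a composite site, GGAAGTGAAA, that overlaps a response element, GAAAATGAAA, their first bases lying 247 and 241 before the start; the second run is a gamma-activated site, TTCCGAGAA, 224 before it. In Irf8 both runs are gamma-activated sites, TTCTCGGAA and TTCAGAGAA, 171 and 153 before the start. The windows of Irf7, Irf3, Irf4, Irf5 and Irf9 hold no match to these letters. A match is a description of the window and no evidence of binding.

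Libraries of the 7-week table hold 577690 to 3643327 reads in listed genes (median 1066378) and in the knockout table these were 942751 to 5478761. Depth in the transfer table is unknown. Levels are in RPM, and differences are fitted differences of log2(RPM + 1), which understate the change of low genes. A difference is called at an adjusted p under 0.05 in limma over the 11373, 11388 or 12096 genes that passed the filter on low values, and all 8 members passed it in each table. The median difference over all tested genes was not 0 in every comparison, ranging from -0.28 to 0.20 in the 7-week table, so it is given beside several of the counts. In bulk libraries, fewer cells of a type and less RNA per cell cannot be told apart. Irf5, Irf7 and Irf9 are listed under different RefSeq transcripts in different tables, and Irf3 under a non-coding one, so levels are compared within a table only. Irf8 overlaps the annotated gene Gm20388 on the same strand, Irf9 overlaps Rnf31 on the same strand, and Irf1, Irf2, Irf3, Irf5 and Irf7 overlap genes on the other strand. How reads of overlapping genes were divided is not stated.

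The make-up of the family's mRNA differed between populations. Per kilobase of the listed transcript, Irf8 led in the MDP at 416 RPM per kb and in the cMoP at 341, 73.3% and 73% of the sum over the 8 members. In marrow Ly6C+ monocytes its share was 35.8%, followed by Irf5 at 24.2% and Irf7 at 14.4%. Irf7 led in blood Ly6C+ cells at 288 RPM per kb (34.3%). Irf5 led in Ly6C- cells of blood (157 RPM per kb, 28.8%) and of marrow (110.1, 25%). The knockout table gave Irf8 first in the MDP and cMoP (61.9% and 64.4%), Irf7 first in wt blood Ly6C+ cells (29.6%) and Irf5 first in wt Ly6C- cells (28.3%). In marrow Ly6C+ cells of that table Irf7 came first, at 27.9%, ahead of Irf8 at 22.3%. In plain RPM that order was reversed, with Irf8 at 537 ± 78.7 and Irf7 at 452 ± 80.4. In the transfer table Irf8 led in host Ly6C+ cells of blood (27.3%) and spleen (28%), with Irf7 next (21.7% and 21.1%). Irf5 came first there in host blood Ly6C- cells (22.8%), at 255 ± 55.1 RPM per kb, with Irf8 close by at 235 ± 19.4. In plain RPM Irf8 was the higher in those cells, at 670 against 571. Irf8 and Irf5 stood level in host spleen Ly6C- cells (22.2% each). Which member led in blood Ly6C+ cells was therefore not the same in every table. Per kilobase, Irf4 was last in every group of all 3 tables, and its listed transcript, of 4764 bases, was the longest. In plain RPM it was not always last: in ko Ly6C+ cells Irf4 was at 121 and Irf3 at 109. Whether reads scale with transcript length in these oligo-dT libraries was not tested.

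The members differed in how far their levels ranged over the 7 groups of the 7-week table (means ± SD in RPM, n = 3 or 4). The highest group mean was 85.2 times the lowest for Irf7 and 37.5 times for Irf4, against 13 for Irf5, 6.89 for Irf8, 4.39 for Irf2, 3.6 for Irf1, 3.25 for Irf9 and 1.53 for Irf3. Irf7 came in the order blood Ly6C+ (644 ± 223), blood Ly6Cint (279 ± 31.9), blood Ly6C- (219 ± 47.1), marrow Ly6C+ (205 ± 20.6), marrow Ly6C- (185 ± 12.3), MDP (12.2 ± 5.87) and cMoP (7.56 ± 1.28). Blood Ly6C+ cells stood clear of the next group, and so did marrow Ly6C- cells of the MDP. The other neighbours in that order overlapped. Irf8 ran nearly the other way: MDP (1183 ± 209.9), cMoP (970.3 ± 79), marrow Ly6C+ (648 ± 173), blood Ly6C+ (387 ± 108), marrow Ly6C- (189 ± 65.5), blood Ly6C- (183 ± 61.4) and blood Ly6Cint (172 ± 43.5), where cMoP and marrow Ly6C+ cells were the 1 pair of neighbours without overlap. Irf5 lay on 3 levels that did not overlap: the 5 monocyte groups at 219.9 to 424, then cMoP at 46.4 to 58.4, then MDP at 24.2 to 35.1. Irf4 had 1 gap, between marrow Ly6C+ cells (11.8 ± 0.804) and cMoP (1.43 ± 1.12). Irf2 was lowest in cMoP and next lowest in MDP, each clear of its upper neighbour. Irf1 had 1 gap, between MDP and cMoP, its lowest group. Irf3 and Irf9 had none: every group overlapped the next.

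**Figure D1:**
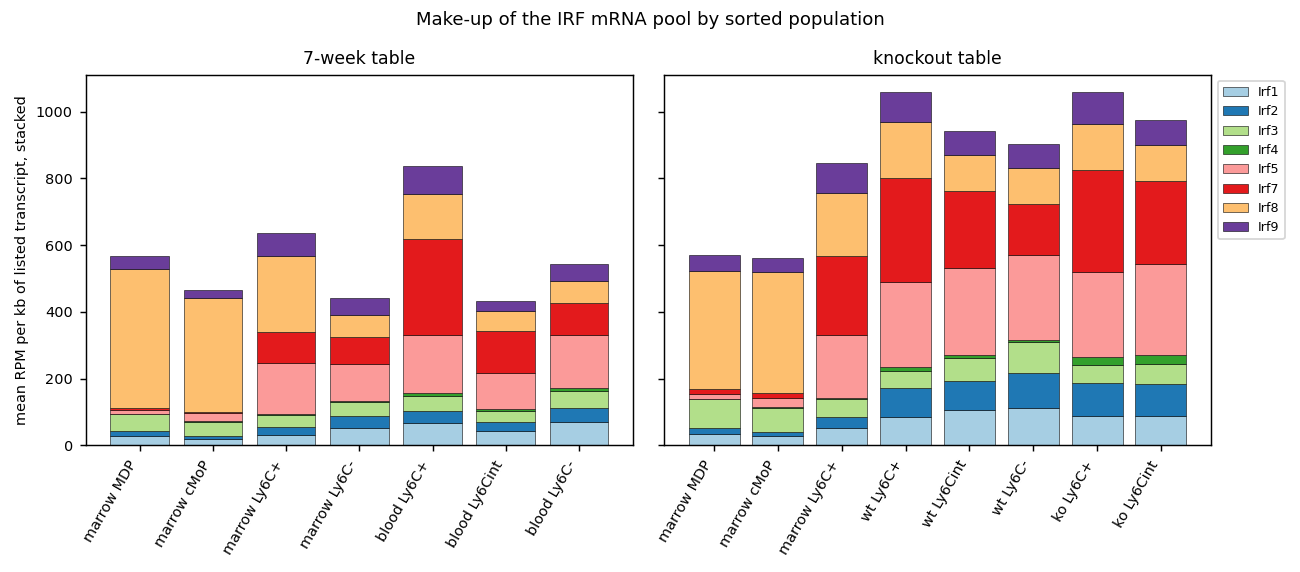
Mean RPM per kb of listed transcript for the 8 members, stacked, by sorted population in the 7-week table (left) and the knockout table (right). The Irf8 block fills 73.3% of the MDP bar at 7 weeks and 11.8% of the blood Ly6C- bar.

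From MDP to cMoP, Irf5 was the 1 member called in both tables. At 7 weeks Irf5, a latent factor activated downstream of toll-like receptors, stood at 24.2, 26.5, 31.1 and 35.1 RPM in the MDP libraries and 46.4, 56.1, 56.8 and 58.4 in the cMoP libraries. The sets did not overlap (log2 difference 0.88, SE 0.16, adjusted p = 0.000199). Members called were 1 of 8, beside 9.25% of all genes. In the knockout table Irf5 stood at 30.2 and 37.9 in MDP and 55.6 and 66.2 in cMoP (log2 difference 0.82, SE 0.16, adjusted p = 0.00727), again 1 of 8 members beside 4.85% of all genes. That call was lost without MDP replicate 1 (0.0901), the value in brackets being the adjusted p. With the compared groups alone the Irf5 call in the knockout table was lost too. At 7 weeks 5 of 8 members had an unadjusted p under 0.05. Irf9 (-0.59, adjusted p = 0.0532) and Irf1 (-0.57, adjusted p = 0.0808) were called lower in cMoP with quantile scaling, in the edgeR fit and with the compared groups alone, and Irf2 (-0.51, adjusted p = 0.123) with quantile scaling. These settings gave 3 or 4 members called. Irf8 was not called: its MDP values at 7 weeks were 1017, 1109, 1115 and 1491 and its cMoP values 902, 946, 948 and 1084, which overlap (interval of the log2 difference -0.77 to 0.22).

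From cMoP to marrow Ly6C+ monocytes, 6 members rose in the 7-week table: Irf7, Irf5, Irf4, Irf9, Irf2 and Irf1. That is 6 of 8 beside 37.7% of all genes called, with a median over the members of 1.42 on the log2 scale and of -0.17 over all genes. Irf7, the main activator of interferon alpha genes, was at 5.8, 7.69, 7.88 and 8.86 RPM in cMoP and 192, 194 and 229 in marrow Ly6C+ cells. Every Ly6C+ library lay above every progenitor library, the MDP included at 7.84, 9.67, 10.6 and 20.9 (log2 difference 4.60, SE 0.24, adjusted p = 1.97e-15). Irf5 stood at 291, 359 and 362 RPM, above all 8 progenitor libraries (log2 difference 2.61, SE 0.17, adjusted p = 4.84e-13).

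Irf4 was close to the limit of detection in the progenitors of the 7-week table, at 0.197, 0.571, 0.774 and 3.25 RPM in MDP and 0.201, 0.869, 1.92 and 2.73 in cMoP, which rest on 1 to 12 reads a library. It was 10.9, 12.2 and 12.4 in marrow Ly6C+ cells, where each library held 15 to 20 reads (log2 difference 2.52, SE 0.41, adjusted p = 1.54e-05). At levels this low the fitted size moves with the pseudocount, to 3.16 at a pseudocount of 0.25. Irf9 was at 44.8, 52.2, 69.4 and 76.7 RPM in cMoP and 149, 158 and 178 in Ly6C+ cells (log2 difference 1.43, SE 0.21, adjusted p = 3.38e-06). Irf2 was at 16.7, 22, 27.8 and 29.7 and 59, 66.4 and 66.7, also apart (log2 difference 1.41, SE 0.21, adjusted p = 4.5e-06). The ranges of Irf1 overlapped, 35.4 to 49.4 against 47.1 to 78.3 (log2 difference 0.64, SE 0.22, adjusted p = 0.0211). The Irf1 call was lost without marrow Ly6C+ replicate 3 (0.0901), marrow Ly6C+ replicate 4 (0.122), cMoP replicate 2 (0.0613) and cMoP replicate 4 (0.0556), each with its adjusted p.

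Separate libraries in the knockout table gave the same 6 members as higher in marrow Ly6C+ cells than in cMoP, and 2 as lower, so all 8 were called beside 36.8% of all genes. Fewer members were called with the compared groups alone. Irf7 was at 26.9 and 28 RPM in cMoP and 396 and 509 in Ly6C+ cells (log2 difference 3.98, SE 0.17, adjusted p = 2.23e-09). Irf5 was at 55.6 and 66.2 in cMoP and 395 and 431 in Ly6C+ cells (log2 difference 2.75, SE 0.16, adjusted p = 2.48e-08). Irf4 was at 1.25 and 3.94 in cMoP, or 2 and 9 reads, and 16 and 23.3 in Ly6C+ cells (log2 difference 2.61, SE 0.34, adjusted p = 4.03e-05). The differences of Irf2, Irf9 and Irf1 were 1.40, 1.02 and 0.95, with adjusted p of 1.33e-05, 0.000567 and 0.00465. Irf8 was lower, 482 and 593 against 1031 and 1032 RPM (log2 difference -0.95, SE 0.16, adjusted p = 0.000309); at 7 weeks its ranges were also apart, 449 to 761 against 902 to 1084, but the test was missed (log2 difference -0.62, SE 0.26, adjusted p = 0.0632). Irf3, the constitutively expressed activator of interferon beta, was lower in the knockout table at 102 and 115 against 149 and 154 RPM (log2 difference -0.48, SE 0.18, adjusted p = 0.0449). At 7 weeks Irf3 was not called (log2 difference -0.28, SE 0.24, adjusted p = 0.394). Without cMoP replicate 2 (0.0823), cMoP replicate 1 (0.13), marrow Ly6C+ replicate 1 (0.0622) and marrow Ly6C+ replicate 2 (0.206) the Irf3 call was lost, as it was in the edgeR fit, and without marrow Ly6C+ replicate 2 (0.0679) that of Irf1, each with its adjusted p. The marrow Ly6C+ libraries of this table carried summed erythroid markers of 3409.9 to 4629.8 RPM against 416 to 651 in cMoP, and the progenitors summed neutrophil markers of 3104 to 3779 (cMoP) against 454 to 474. Their part in these differences was not tested. At 7 weeks the erythroid sums were 3.86 to 183 in Ly6C+ and 16.1 to 51.9 in cMoP, and the neutrophil sums 351 to 497 in Ly6C+ and 47.5 to 78.7 in cMoP, the other way round from the knockout table.

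**Figure D2:**
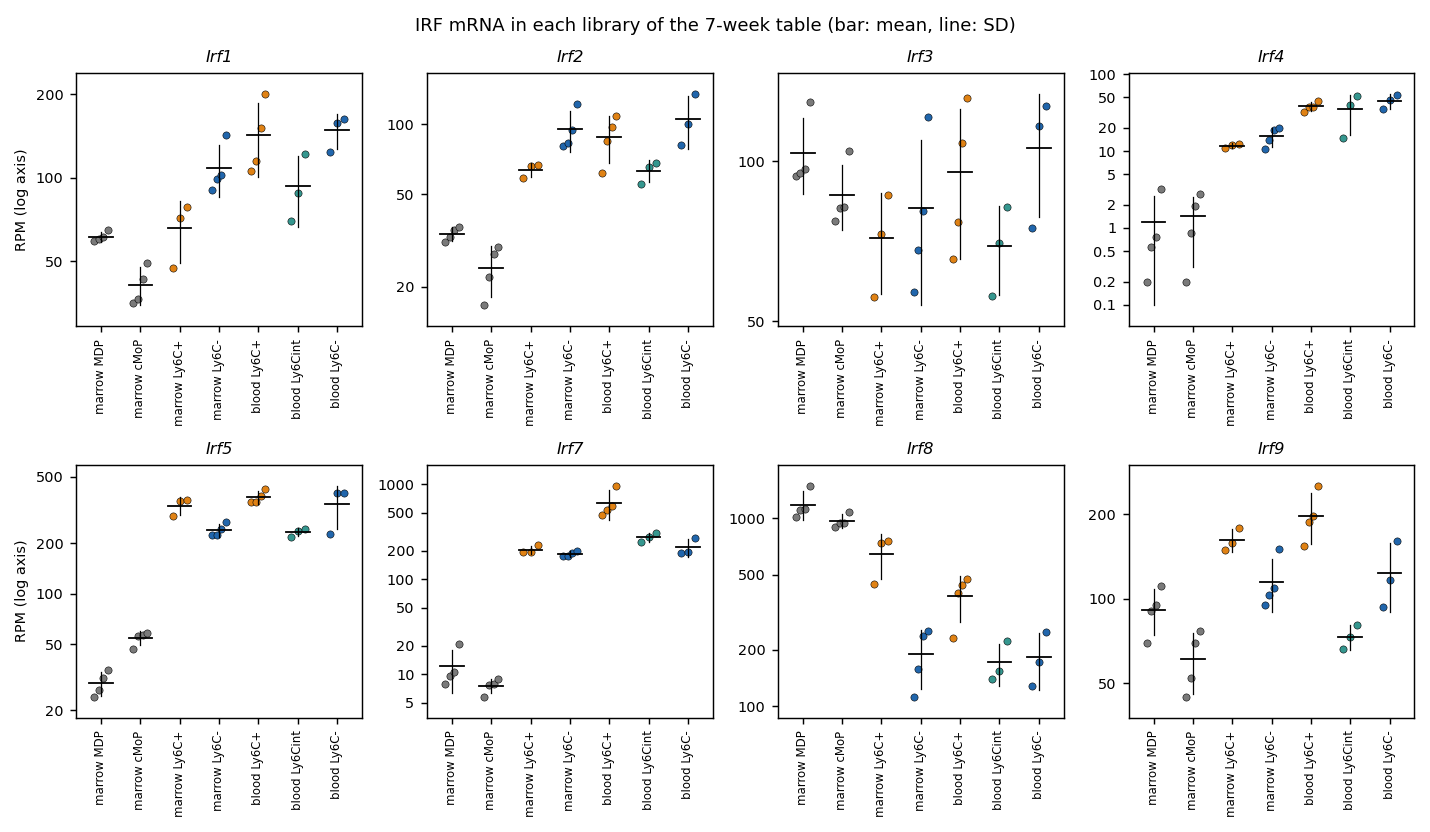
RPM (log axis) of each member in the 25 libraries of the 7-week table, 1 point a library, with the group mean (bar) and SD (line). Irf7 lies at 5.8 to 20.9 RPM in the progenitors and at 477 to 970.3 in blood Ly6C+ cells, while Irf8 is highest in the progenitors.

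Blood Ly6C+ monocytes carried more Irf7, Irf4 and Irf1 mRNA than marrow Ly6C+ monocytes at 7 weeks, and less Irf8. Those are 4 of 8 members beside 26% of all genes, whose median was -0.19. Irf7 stood at 477, 532, 597 and 970.3 RPM in blood, all above the marrow values of 192, 194 and 229 (log2 difference 1.60, SE 0.24, adjusted p = 5.86e-06). Irf4 stood at 32.4, 37.4, 37.9 and 45.3 against 10.9, 12.2 and 12.4, also apart (log2 difference 1.61, SE 0.41, adjusted p = 0.00413). Irf1 stood at 106, 115, 151 and 199.9 against 47.1, 71.7 and 78.3 (log2 difference 1.10, SE 0.22, adjusted p = 0.00034). For Irf8 the ranges overlapped, 231, 401, 444 and 473 in blood against 449, 734 and 761 in marrow (log2 difference -0.75, SE 0.26, adjusted p = 0.0331), and the call was lost without marrow Ly6C+ replicate 3 (0.154), marrow Ly6C+ replicate 4 (0.131) and blood Ly6C+ replicate 4 (0.147), each with its adjusted p, and also with no filter, with the compared groups alone and in the edgeR fit. Irf5, Irf9, Irf2 and Irf3 were not called, with differences of 0.17, 0.27, 0.43 and 0.38.

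Within blood, 5 members were lower in Ly6Cint than in Ly6C+ cells at 7 weeks. They were Irf9, Irf7, Irf8, Irf5 and Irf1, with none higher, beside 27.2% of all genes called and an all-gene median of -0.21. Irf9 fell from 154, 187, 196 and 253 to 65.9, 72.8 and 80.7 RPM (log2 difference -1.40, SE 0.21, adjusted p = 2.03e-05). Irf7 fell to 247, 281 and 311 (log2 difference -1.15, SE 0.24, adjusted p = 0.000728) and Irf8 to 139.6, 155 and 221 (log2 difference -1.15, SE 0.26, adjusted p = 0.00198), with no overlap in any of these. Irf5 went to 219.9, 237 and 244 (log2 difference -0.69, SE 0.17, adjusted p = 0.00397). The Irf1 ranges overlapped (log2 difference -0.61, SE 0.22, adjusted p = 0.0394); that call was lost with the replicate number as a block (0.0636), with no filter, with quantile scaling, with the compared groups alone, in the edgeR fit and without blood Ly6Cint replicate 3 (0.215), blood Ly6Cint replicate 2 (0.102), blood Ly6C+ replicate 3 (0.158) and blood Ly6C+ replicate 4 (0.0734). The wt cells of the knockout table gave 1 of 8 members in this comparison beside 4.29% of all genes: Irf8, at 287 and 319 in Ly6Cint and 442 and 502 in Ly6C+ cells (log2 difference -0.64, SE 0.16, adjusted p = 0.0316), a call lost in the edgeR fit and without wt Ly6C+ replicate 2 (0.271), wt Ly6C+ replicate 1 (0.106), wt Ly6Cint replicate 1 (0.0699) and wt Ly6Cint replicate 2 (0.084). Irf7 there was 398 and 493 in Ly6Cint and 600.1 and 601 in Ly6C+ cells, apart but not called (log2 difference -0.44, SE 0.17, adjusted p = 0.211). Spreads are pooled over a table's libraries, and with 1 of 2 libraries left out the lone one is assumed to vary like the other groups.

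From Ly6Cint to Ly6C- cells at 7 weeks, Irf2 and Irf9 were called higher, 2 of 8 members beside 8.87% of all genes with a median of 0.20. Irf9 went from 65.9, 72.8 and 80.7 to 93.2, 117 and 160.0 RPM (log2 difference 0.72, SE 0.22, adjusted p = 0.0436) and Irf2 from 55.7, 65.8 and 68.5 to 81.7, 100.3 and 135 (log2 difference 0.70, SE 0.23, adjusted p = 0.0474). The count of members called ranged from 0 to 5 when single libraries were left out, and it was 0 in the edgeR fit. Without blood Ly6C- replicate 1, Irf1, Irf2, Irf3, Irf5 and Irf9 were called higher. The Irf9 call was lost without blood Ly6Cint replicate 3 (0.0582), blood Ly6Cint replicate 2 (0.0914), blood Ly6Cint replicate 1 (0.13), blood Ly6C- replicate 3 (0.118) and blood Ly6C- replicate 2 (0.242). That of Irf2 was lost without blood Ly6Cint replicate 3 (0.137), blood Ly6Cint replicate 2 (0.0834), blood Ly6Cint replicate 1 (0.0736), blood Ly6C- replicate 3 (0.27) and blood Ly6C- replicate 2 (0.114). In the wt cells limma called 0 of 8 members, beside 0.448% of all genes. There 2 members had an unadjusted p under 0.05, and edgeR also called 0. Irf7 was at 285 and 295 in wt Ly6C- and 398 and 493 in wt Ly6Cint cells (log2 difference -0.61, SE 0.17, adjusted p = 0.185).

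The whole step from Ly6C+ to Ly6C- cells was measured in 5 settings: blood and marrow at 7 weeks, wt blood, and host blood and spleen. Irf7 was called lower in all 3 blood settings, and Irf8 in blood and marrow at 7 weeks and in wt blood. In blood at 7 weeks 3 members were lower and none higher, beside 20.3% of all genes: Irf7 (log2 difference -1.52, SE 0.24, adjusted p = 1.66e-05), Irf8 (log2 difference -1.08, SE 0.26, adjusted p = 0.00337) and Irf9 (log2 difference -0.69, SE 0.21, adjusted p = 0.019). Irf7 in Ly6C- cells was 191, 192 and 273 RPM, below every Ly6C+ library. The Irf8 values, 128, 172 and 249 against 231, 401, 444 and 473, met at 1 library a side, as did those of Irf9. The Irf9 call was lost without blood Ly6C- replicate 3 (0.0525), blood Ly6C- replicate 1 (0.134) and blood Ly6C+ replicate 3 (0.0675), each with its adjusted p. With the compared groups alone, the count of members called in blood at 7 weeks was 1 in place of 3. Siglech, a gene of plasmacytoid dendritic cells, was at 1.01 to 22.8 RPM in these Ly6C+ and 1.93 to 2.67 in these Ly6C- libraries. In wt blood it was at 0 to 0.304 and 0 to 1.00. The part of such cells in the Irf7 and Irf8 differences was not tested. In wt blood, 4 members of the family were called beside 10.5% of all genes: Irf7 fell from 600.1 and 601 to 285 and 295 RPM (log2 difference -1.05, SE 0.17, adjusted p = 0.000925), Irf8 from 442 and 502 to 297 and 316 (log2 difference -0.62, SE 0.16, adjusted p = 0.019) and Irf4 from 62 and 76.7 to 25.2 and 36.3 (log2 difference -1.16, SE 0.34, adjusted p = 0.0401). Irf3 rose from 96.3 and 106 to 185 and 188 (log2 difference 0.88, SE 0.18, adjusted p = 0.00379). Leaving out 1 library ended the Irf8 call without wt Ly6C+ replicate 2 (0.182), wt Ly6C+ replicate 1 (0.0549), wt Ly6C- replicate 1 (0.137) and wt Ly6C- replicate 2 (0.0727), the Irf4 call without wt Ly6C+ replicate 2 (0.114), wt Ly6C+ replicate 1 (0.235), wt Ly6C- replicate 1 (0.0676) and wt Ly6C- replicate 2 (0.271), and the Irf3 call without wt Ly6C+ replicate 1 (0.0504). The Irf4 call was also lost at a pseudocount of 0.25, with no filter, with quantile scaling and with the compared groups alone (adjusted p from 0.062 to 0.0886). The compared groups alone gave 2 members called in wt blood in place of 4. Summed conventional dendritic cell markers were 84.3 to 104 RPM in wt Ly6C+ and 46.2 to 51.2 in wt Ly6C- cells, and their part in the Irf4 difference was not tested. Irf4 was not called in blood at 7 weeks, where it was 34.7, 46 and 54 in Ly6C- and 32.4, 37.4, 37.9 and 45.3 in Ly6C+ cells (log2 difference 0.21, SE 0.41, adjusted p = 0.766). The difference between the tables was not tested.

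The hosts of the transfer experiment gave the third blood series. Irf7 was 538 and 669 RPM in Ly6C+, 279 and 482 in Ly6Cint and 233 and 236 in Ly6C- cells. The Ly6C- to Ly6C+ difference was the 1 member call (log2 difference -1.35, SE 0.36, adjusted p = 0.0351), beside 3.66% of all genes, and it was lost with no filter, with the compared groups alone and without host blood Ly6C- replicate A (0.191), host blood Ly6C- replicate B (0.209), host blood Ly6C+ replicate A (0.332) and host blood Ly6C+ replicate B (0.107). In host spleen the values were 514 and 651 in Ly6C+, 331 and 453 in Ly6Cint and 215 and 270.0 in Ly6C- cells, apart but short of the threshold (log2 difference -1.26, SE 0.36, adjusted p = 0.0663). No member was called in spleen beside 2.77% of all genes in limma, with 2 of 8 at an unadjusted p under 0.05; the transfer table allows no edgeR fit. Irf8 was lower in Ly6C- cells without overlap in both tissues and not called in either: 631 and 709 against 1026 and 1227 in blood (log2 difference -0.74, SE 0.24, adjusted p = 0.109) and 579 and 746 against 1019.5 and 1280.1 in spleen (log2 difference -0.80, SE 0.24, adjusted p = 0.0974). Irf4 was 117 and 122 in host blood Ly6C+ and 22.8 and 42.1 in Ly6C- cells. In host spleen it was 96.8 and 100.4 in Ly6C+ and 38.1 and 48.2 in Ly6C- cells. Those sets are apart, but neither difference was called (log2 difference -1.91, SE 1.17, adjusted p = 0.648 in blood). That SE pools the spread of Irf4 over all groups of the table. Among them are blood graft pairs of 0 and 30.7 RPM and of 0 and 15.3 RPM. It is therefore not the spread of the host libraries alone. The step was not shown to differ between host spleen and blood for any member (0 of 8 called in limma beside 0% of all genes, 0 at an unadjusted p under 0.05), nor did the tissues averaged over the 3 subsets (0 of 8 beside 0.852%, 0 unadjusted).

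In marrow, Irf7 was not called between the subsets. Its level in marrow Ly6C- cells was 175, 176, 188 and 201 RPM, overlapping the marrow Ly6C+ values of 192, 194 and 229 (log2 difference -0.14, SE 0.24, adjusted p = 0.664). The test of the difference itself, the marrow step minus the blood step at 7 weeks, gave log2 difference 1.38, SE 0.33, adjusted p = 0.00429. It was the 1 of 8 members called in that test, beside 17.8% of all genes, and it was called in each of its 20 alternatives (adjusted p from 0.000459 to 0.0158). In the same test Irf1 was also called with quantile scaling and in the edgeR fit. Irf8 fell in marrow from 449, 734 and 761 to 112, 157, 237 and 250.1 RPM (log2 difference -1.80, SE 0.26, adjusted p = 2.07e-06), and the step of Irf8 was not shown to differ from that in blood (log2 difference -0.72, SE 0.37, adjusted p = 0.184). Other members called between marrow Ly6C- and Ly6C+ cells were Irf1 (log2 difference 0.73, SE 0.22, adjusted p = 0.0089) and Irf2 (log2 difference 0.55, SE 0.21, adjusted p = 0.0382), which rose, and Irf5 (log2 difference -0.48, SE 0.17, adjusted p = 0.026), which fell, so 4 of 8 beside 40.1% of all genes with a median of -0.28. Without 1 library the Irf1 call was lost for marrow Ly6C+ replicate 1 (0.0982), the Irf2 call for marrow Ly6C- replicate 2 (0.0639), marrow Ly6C- replicate 4 (0.13), marrow Ly6C+ replicate 3 (0.124), marrow Ly6C+ replicate 4 (0.068) and marrow Ly6C+ replicate 1 (0.0671), and the Irf5 call for marrow Ly6C- replicate 3 (0.0594), marrow Ly6C- replicate 2 (0.0606), marrow Ly6C+ replicate 3 (0.101) and marrow Ly6C+ replicate 4 (0.0951), each with its adjusted p. The Irf5 call was also lost with quantile scaling and in the edgeR fit. Marrow Ly6C- libraries had summed erythroid markers of 719 to 1852 RPM, against 3.86 to 183 in marrow Ly6C+ libraries, and summed splenic macrophage markers of 479.7 to 859 against 112 to 205. Their part in these results was not tested.

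**Figure D3:**
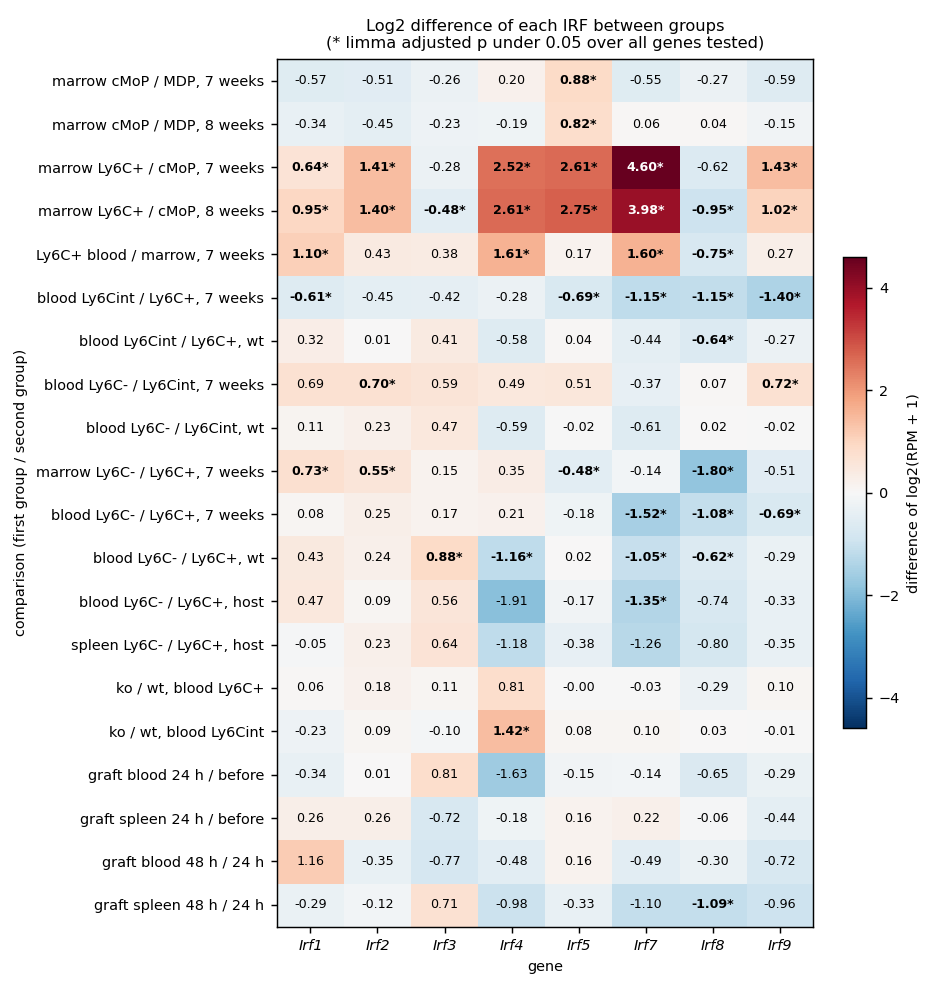
Fitted differences of log2(RPM + 1) for each member (columns) in 20 comparisons (rows), red where the first group is higher, with an asterisk where limma called the difference. Irf7 is negative in all 5 rows that set Ly6C- against Ly6C+ cells, from -1.52 in blood at 7 weeks to -0.14 in marrow, where it was not called.

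In the knockout table the targeted gene was checked first. Cebpb stood at 693 and 804 RPM in wt Ly6C+, 1242 and 1734 in wt Ly6Cint, 57.2 and 115 in ko Ly6C+ and 67.1 and 186 in ko Ly6Cint cells. The ko libraries were therefore low in Cebpb mRNA in both subsets and not at 0. Irf4 was the 1 member called between genotypes. It was 114 and 136 RPM in ko Ly6Cint cells and 43.5 and 48.4 in wt Ly6Cint cells, which do not overlap (log2 difference 1.42, SE 0.34, adjusted p = 0.0205; 1 of 8 members beside 6.33% of all genes). In Ly6C+ cells Irf4 was 120.2 and 123 in ko and 62 and 76.7 in wt, also apart, but not called (log2 difference 0.81, SE 0.34, adjusted p = 0.425). The ko effect was not shown to differ between the subsets (log2 difference 0.61, SE 0.48, adjusted p = 0.981; 0 of 8 members called in limma or edgeR beside 0.00878% of all genes, 0 with an unadjusted p under 0.05).

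The Irf4 call in ko Ly6Cint cells was kept in the edgeR fit on recovered reads (adjusted p = 0.00384), with the replicate block and with no filter. It was lost without wt Ly6Cint replicate 1 (0.0615), wt Ly6Cint replicate 2 (0.0774), ko Ly6Cint replicate 2 (0.177) and ko Ly6Cint replicate 1 (0.0757), and at a pseudocount of 0.25 (0.0506), with quantile scaling (0.052) and with the compared groups alone (0.162), the values being adjusted p. Its size stayed between 1.29 and 1.54 on the log2 scale in all 10 alternatives. The 8 conventional dendritic cell markers summed to 330.5 to 389 RPM in ko Ly6Cint against 93.5 to 121 in wt Ly6Cint cells, and to 157 to 164 against 84.3 to 104 in Ly6C+ cells. Of the 6 tested in Ly6Cint cells, 2 were called higher: Clec10a 2.11 (adjusted p = 9.11e-05) and Cd209a 2.52 (adjusted p = 0.0249). Zbtb46 and Clec9a of the same list were 2.46 and 4.2 RPM in ko against 2.18 and 3.51 in wt and were not called. Summed monocyte markers were 3898 to 4312 in ko and 6934 to 7589.7 in wt Ly6Cint cells, with 4 of 10 called lower, and summed splenic macrophage markers 441 to 799.9 and 180.1 to 198, with 3 of 7 called higher. The part of other cell types in the Irf4 difference was not tested, and differences in background between the wt and ko mice cannot be told apart from the genotype.

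The remaining 7 members were not called between ko and wt cells of either subset. Irf7 was 452 and 495 RPM in ko and 398 and 493 in wt Ly6Cint cells (interval of the log2 difference -0.28 to 0.47). In Ly6C+ cells it was 544 and 637 in ko and 600.1 and 601 in wt (-0.40 to 0.34). Irf5 was 578 and 623 in ko and 563 and 575 in wt Ly6Cint cells (-0.27 to 0.42). Irf8 was 385 and 387 in ko and 442 and 502 in wt Ly6C+ cells, apart (-0.62 to 0.05), and overlapped in Ly6Cint cells. In Ly6C+ cells limma called 0 of 8 members beside 1.26% of all genes, 1 had an unadjusted p under 0.05, and edgeR called 0. A difference that misses the threshold is not shown to be absent, and the widest interval among the 7 members in Ly6Cint cells ran from -0.72 to 0.26 (Irf1).

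**Figure D4:**
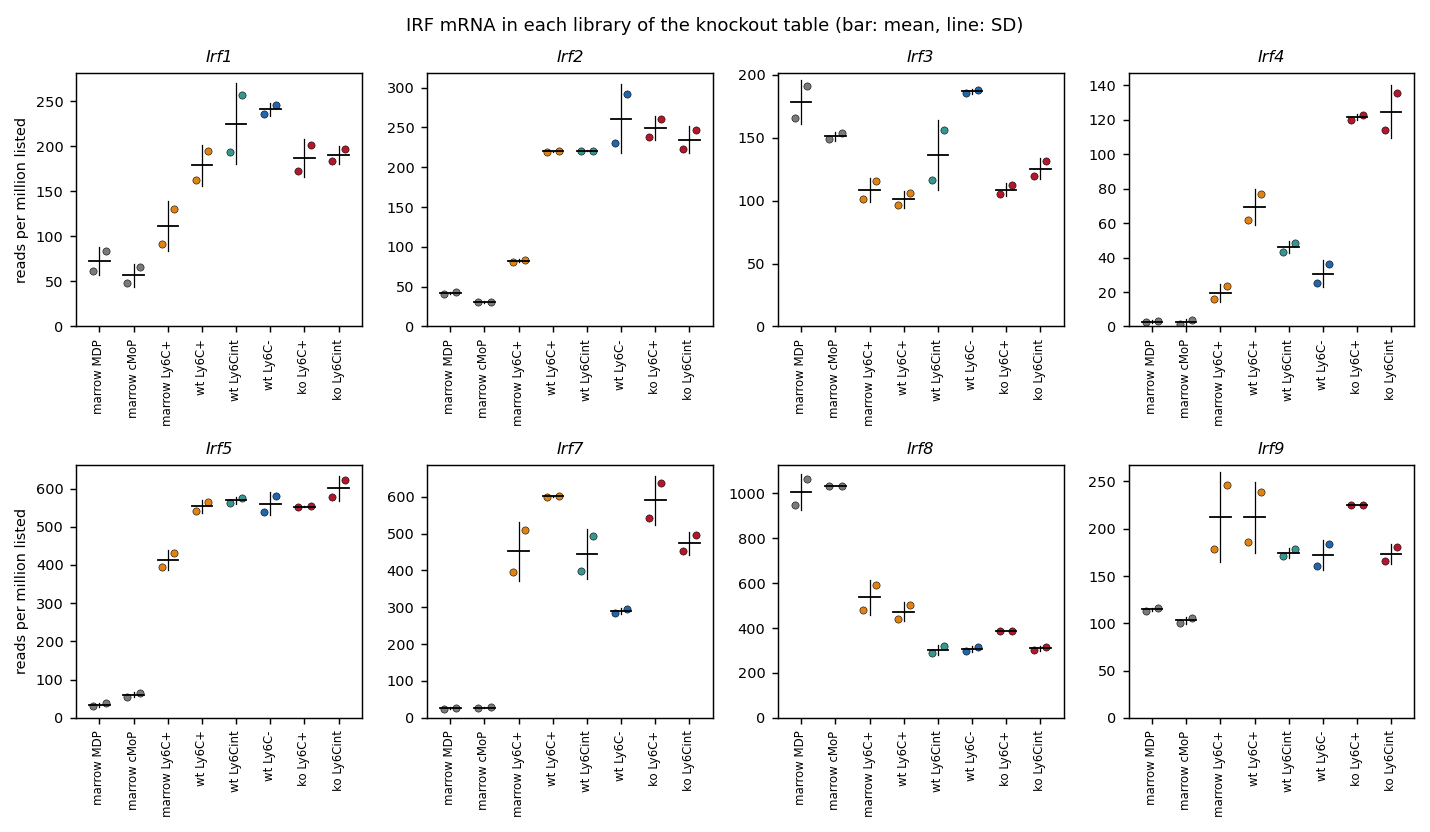
RPM of each member in the 16 libraries of the knockout table, 2 points a group, with the group mean (bar) and SD (line), on linear axes from 0. In the Irf4 panel the ko points (red) lie at 114 to 136 against 43.5 to 76.7 in wt Ly6C+ and Ly6Cint cells of blood. The difference was called in Ly6Cint cells and not in Ly6C+ cells.

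Marrow Ly6C+ monocytes followed after transfer showed 1 called member, Irf8 in the spleen. Irf8 was 817 and 857 RPM before transfer. In spleen grafts it was 786 and 821 at 24 h, 611 and 643 at 36 h and 308 and 461 at 48 h, the 48 h pair lying below the others (log2 difference -1.09, SE 0.24, adjusted p = 0.0175 for 48 against 24 h; 1 of 8 members beside 2.41% of all genes, median -0.17). That call was lost without 24 h spleen graft replicate C (0.113) and 48 h spleen graft replicate C (0.102), each with its adjusted p, and with the compared groups alone. Summed markers of plasmacytoid dendritic cells, which carry much Irf8 and Irf7, were 268 to 304 RPM at 24 h and 117 to 148 at 48 h in spleen grafts, lower at 48 h as Irf8 was. Summed splenic macrophage markers were 418 to 1244 and 259 to 398. Their part in the Irf8 difference was not tested. In blood grafts Irf8 was 475 and 599 at 24 h, 683 and 731 at 36 h and 346 and 541 at 48 h, with no call (log2 difference -0.65, SE 0.24, adjusted p = 0.081 at 24 h against before; log2 difference -0.30, SE 0.24, adjusted p = 0.509 for 48 against 24 h). The all-gene median of the 24 h blood comparison was -0.53.

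Irf7 in spleen grafts was 389.6 and 626 RPM at 24 h, 343 and 419 at 36 h and 229.6 and 231 at 48 h. The 48 h pair lay below the 24 h pair but was not called (log2 difference -1.10, SE 0.36, adjusted p = 0.111), and at 229.6 and 231 it was within the host spleen Ly6C- values of 215 and 270.0. In blood grafts the 24 h pair was wide, 223 and 669, and the values were 405 and 409.8 at 36 h and 237 and 318 at 48 h. Without blood graft 24 h replicate AC the 48 against 24 h difference of Irf7 was called at -1.28 (adjusted p = 0.0134), and that of Irf1 at 2.08 (adjusted p = 0.000335). With both libraries these were -0.49 (SE 0.36, adjusted p = 0.452) for Irf7 and 1.16 (SE 0.39, adjusted p = 0.071) for Irf1, and limma called 0 of 8 members beside 8.09% of all genes (2 at an unadjusted p under 0.05). Between 24 h grafts and cells before transfer it called 0 of 8 in blood beside 13.3% of all genes (2 unadjusted) and 0 of 8 in spleen beside 5.8% (1 unadjusted). These 2 comparisons share the libraries before transfer.

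Irf4 was low in the grafts and high in the hosts' Ly6C+ cells. It was 16.2 and 16.7 RPM before transfer, and 0 and 30.7 at 24 h, 12.7 and 17.5 at 36 h and 0 and 15.3 at 48 h in blood grafts. In spleen grafts it was 12.7 and 16.2 at 24 h, 7.45 and 10.1 at 36 h and 2.63 and 15.8 at 48 h. All 12 graft libraries, at 0 to 30.7, lay below the 4 host Ly6C+ libraries of blood and spleen, at 96.8 to 122. The 24 h blood graft library at 30.7 was the only graft library within the range of the 4 host Ly6C- libraries, 22.8 to 48.2. The other graft libraries, at 0 to 17.5, lay below that range. Grafts and hosts were not compared by a test, and with depth unknown no limit can be set for the listed zeros. In the same libraries the summed conventional dendritic cell markers were 180.1 to 259 RPM in host blood Ly6C+ cells, 22.8 to 96.4 in 24 h blood grafts and 82.4 to 89.4 before transfer. Host blood and blood grafts also carried summed erythroid markers of 942 to 7823 RPM, against 15.3 to 25 before transfer. In spleen grafts at 36 h replicate C stood apart, with summed splenic macrophage markers of 4863 RPM against 1589.8 in replicate B. No comparison used the 36 h groups, and the part of other cells was not tested.

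Over the 13 groups of this table the highest group mean of Irf5 was 1.35 times the lowest, the smallest such ratio of the 8 members, and that of Irf4 15.6 times, the largest. Irf5 lay at 437 to 746 RPM over all 26 libraries. Irf2 spanned 205 to 447 and had its highest group mean in host blood Ly6C- cells, at 427 and 432. Irf9 was at 241 and 252 before transfer and split in 48 h spleen grafts, at 48.2 and 178. Irf3 in 24 h grafts was 228 and 258 in blood and 57.4 and 121 in spleen, against 121 and 158 before transfer, with neither difference called (log2 difference 0.81, SE 0.34, adjusted p = 0.124 in blood; log2 difference -0.72, SE 0.34, adjusted p = 0.305 in spleen).

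**Figure D5:**
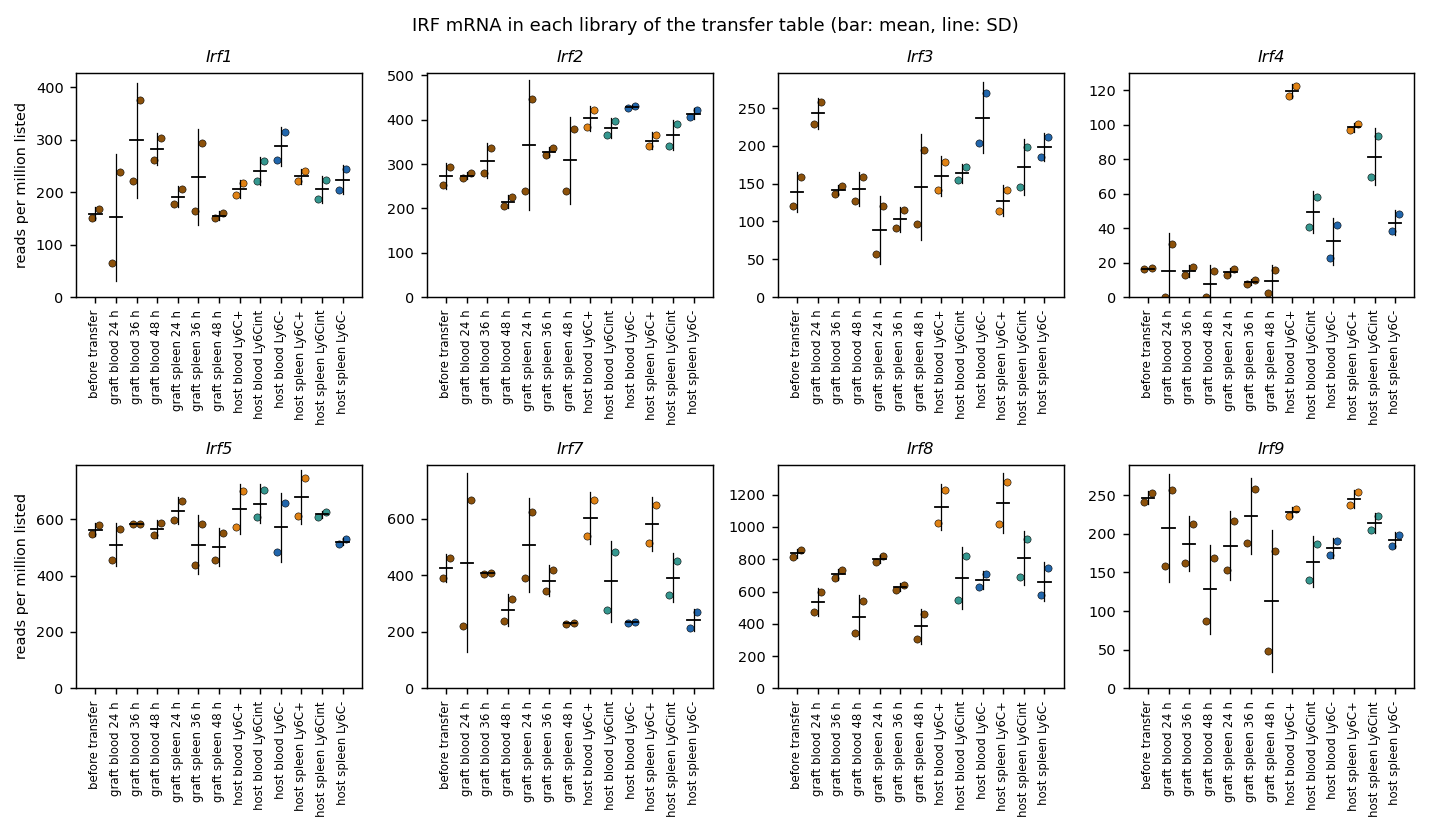
RPM of each member in the 26 libraries of the transfer table, 2 points a group, with the group mean (bar) and SD (line), on linear axes from 0. In the Irf4 panel the 12 graft points lie at 0 to 30.7 and the host Ly6C+ points at 96.8 to 122.

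The other genes of the pathway were read from 7 lists of inputs, partners and targets. Their counts are set beside the median of all genes and are not independent of results already known for these data. The 9 interferon ligand genes were at or near 0: none passed the filter in any table, and Ifnb1, the gene of interferon beta, was listed at 0 in all 25 libraries of the 7-week table. Ifnb1 was above 0 in 1 ko Ly6Cint library, at 0.805 RPM, and in 1 library before transfer, at 0.438. A count of 0 at 7 weeks allows up to 0.58 to 3.34 RPM by library (3 reads, counting error only).

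Many inputs of the latent IRFs rose from cMoP to marrow Ly6C+ cells. Of 16 nucleic acid sensors and adaptors 9 rose and none fell at 7 weeks (median 0.87, all genes -0.17), in a step where 37.7% of all genes were called. They were led by Ddx58 (RIG-I) at 3.44 (adjusted p = 4.02e-11), Ifih1 (MDA5) at 1.74 (adjusted p = 6.48e-06) and Tlr7 at 3.30 (adjusted p = 1.15e-05). Of 14 interferon receptor and JAK-STAT genes 10 rose and none fell (median 0.97). Stat2, a partner of Irf9, rose by 2.02 (adjusted p = 6.4e-08) on the log2 scale. Of 13 kinases and ligases 2 rose and 2 fell (median 0.10), a share below that of all genes. In the knockout libraries, where 36.8% of all genes were called, 8 of 14 tested sensors rose and 1 fell (median 1.18), 10 of 14 JAK-STAT genes rose (median 0.97), and of the kinases and ligases 4 rose and 2 fell.

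The type I interferon target genes, which the Irf9 complex and Irf7 are known to raise, were followed over the same steps. From MDP to cMoP none of 20 rose and 4 fell at 7 weeks (median -0.60), beside 9.25% of all genes called. Of the 20, 18 rose and none fell from cMoP to marrow Ly6C+ cells at 7 weeks (median 3.19, all genes -0.17) and again in the knockout table (median 3.11, all genes -0.10). Of all genes, 37.7% and 36.8% were called in those comparisons. At 7 weeks Ifi27l2a rose by 5.74 (adjusted p = 2.52e-18), Rtp4 by 4.70 (adjusted p = 1.02e-13) and Zbp1 by 3.60 (adjusted p = 6.61e-13) on the log2 scale. From marrow to blood Ly6C+ cells 11 rose and 1 fell (median 1.19), beside 26% of all genes called. From Ly6C+ to Ly6C- cells in blood 15 fell and none rose at 7 weeks (median -1.57) and 13 fell in wt cells (median -1.30). Of all genes, 20.3% and 10.5% were called there. Isg15 was at -3.05 (adjusted p = 3.19e-10) at 7 weeks and -1.75 (adjusted p = 9.52e-05) in wt. In the hosts 6 of 20 fell in blood and 3 in spleen, none rising (medians -1.60 and -1.48), beside 3.66% and 2.77% of all genes. In marrow 4 of 20 fell (median -0.24, all genes -0.28), a share below the 40.1% of all genes called there. In the test of marrow against blood steps 11 of the 20 were called, beside 17.8% of all genes. In all 11 the fall was smaller in marrow (median 1.45, all genes -0.28). Stat2 was called in that test too, 0.99 (adjusted p = 0.0389).

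IRF1 target genes, which include the guanylate-binding proteins and the antigen-processing genes, were mixed. Of 16 tested, 5 rose and none fell from cMoP to marrow Ly6C+ cells (median 0.54, all genes -0.17). Of all 11373 genes tested there, 37.7% were called, 1737 higher and 2549 lower. From blood Ly6C+ to Ly6C- cells 5 fell and 1 rose (median -0.25), beside 20.3% of all genes. Among those that fell was the chemokine gene Cxcl10, -4.48 (adjusted p = 4.01e-10), and the gene that rose was Ciita, the MHC class II activator, 1.91 (adjusted p = 0.000295). Of 13 DNA-binding partners 2 rose and 1 fell from cMoP to marrow Ly6C+ cells at 7 weeks (median -0.11), and 1 rose and 5 fell in the knockout table (median -0.12). Etv6, a transcriptional repressor, fell in both, -1.14 (adjusted p = 5.51e-05) and -0.78 (adjusted p = 0.0168). Spi1 (PU.1) was 0.80 (adjusted p = 0.00228) from cMoP to marrow Ly6C+ cells at 7 weeks and 0.69 (adjusted p = 0.0155) from blood Ly6C+ to Ly6C- cells. Batf3, a partner of Irf4 and Irf8, was 3.39 (adjusted p = 3.58e-11) from cMoP to marrow Ly6C+ cells. Ikzf3 (Aiolos), a partner of Irf4, was higher in Ly6C- than in Ly6C+ cells of marrow, 5.52 (adjusted p = 5.64e-11), blood, 3.81 (adjusted p = 1.98e-07), and wt blood, 5.25 (adjusted p = 2.17e-06).

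Between ko and wt Ly6Cint cells 7 of the 20 type I interferon target genes were higher and none lower (median 0.95, all genes 0.07). Of all genes, 6.33% were called there. The higher targets included Isg15 at 2.00 (adjusted p = 9.11e-05), Oas2 at 1.36 (adjusted p = 0.00793) and Ifi44 at 4.52 (adjusted p = 2.34e-05). Ifi44 was also the 1 of 20 higher in ko Ly6C+ cells, 4.98 (adjusted p = 1.77e-05), beside 1.26% of all genes. Irf7, Irf9 and Stat2 were not called in Ly6Cint cells. Stat2 was at 172 and 192 RPM in ko and 122 and 127 in wt, apart (log2 difference 0.54, adjusted p = 0.141). The part of other cell types in these differences was not tested. Of 13 partners of IRFs 4 were higher and 1 lower in ko Ly6Cint cells (median -0.14), beside 6.33% of all genes called. Among the higher were Batf3, 2.01 (adjusted p = 0.00393), and Cebpa, 1.55 (adjusted p = 0.000976). Of 16 tested IRF1 target genes Ciita was the 1 called, 2.79 (adjusted p = 0.0067). Spi1 was not called, -0.49 (adjusted p = 0.224).

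The genes most like each member were found by Pearson's r of log2(RPM + 1) over the 25 libraries of the 7-week table, among 7466 genes with a mean of at least 10 RPM. The r over the 16 knockout-table libraries follows as the second value. Libraries share sorting, depth and population, so these are descriptions without a test. For Irf7 they were Oas1g (0.99 and 0.79), Parp14 (0.99 and 0.96) and Oas2 (0.99 and 0.96), and for Irf4 Atf3 (0.96 and 0.98), Cd300a (0.95 and 0.91) and Plekho2 (0.95 and 0.89). For Irf5 they were Pld4 (0.99 and 0.98), Prkcd (0.98 and 0.94) and Pirb (0.98 and 0.98), and for Irf8 Mrpl28 (0.96 and 0.85), Fam117a (0.96 and 0.96) and Apitd1 (0.95 and 0.87). Irf2 was closest to Fmnl1 (0.96 and 0.92), Sdc3 (0.96 and 0.95) and Arhgef1 (0.95 and 0.79), Irf1 to Gpr132 (0.94 and 0.98), Lfng (0.94 and 0.97) and Sema4d (0.93 and 0.97), and Irf9 to Sp100 (0.86 and 0.90), Cic (0.86 and 0.78) and Arrb2 (0.86 and 0.72). Irf3 had no close neighbour: its nearest were Lypla2 (0.83 and 0.02), Snrpb (0.80 and 0.69) and Taf1c (0.76 and 0.25), and the r of the first was near 0 over the knockout table.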

How the data were processed

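The authors deposited 3 tables of values per gene. Per the submitters' processing notes, reads were handled with bcl2fastq, HISAT 0.1.5, SAMtools and HOMER on mm9; the strand setting is not given in the sources used here. In the 7-week and knockout tables the deposited signal was taken as reads per 10000000 and divided to RPM. Listed genes summed to 5981863 to 7335815 of that total at 7 weeks. RPM is therefore not scaled to listed genes in those tables, as it is in the transfer table. All values came out as whole reads within 0.1 read. The deposited score of the transfer table, scaled and rounded by the authors, was divided to a total of 1000000 and gives no depth.

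Genes with at least 2 RPM in 3 libraries (7-week) or 2 (others) entered limma 3.58.1 in R 4.3.3 with a trend on log2(RPM + 1), each table fitted once with a mean for every group, two-sided, adjusted by Benjamini-Hochberg over all genes tested. edgeR 4.0.16 on recovered reads, other pseudocounts, filters, scalings and blocks, and each library left out were alternatives. The limma fit was tested on simulated data for cMoP against MDP at 7 weeks only. Comparisons were chosen from the labels. Named genes are the 8 members, the 3 genes most like each, up to 3 called genes with the smallest p of each of 7 pathway lists, and Stat2, Spi1, Ifnb1 and Cebpb, with 1 further gene not reported here; markers named beside a result were chosen after their values were seen. The lists are sensors and adaptors, kinases and ligases, interferon ligands, receptors and JAK-STAT, IRF partners on DNA, type I interferon targets and IRF1 targets. Members and lists were chosen with earlier results of these data known.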

Additional observations from a re-analysis of the deposited data

Results flagged for a closer look

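Irf3 in MDP replicate 1 of the 7-week table stood at 129 RPM, apart from the other 3 MDP libraries at 93.6 to 96.7 RPM. Of 32 member groups of 4 libraries examined for a library far from the others, this was the 1 that stood out. Chance alone flags about 1 group in 20, so 1 flag in 32 groups is no more than chance gives. The Ly6C- minus Ly6C+ difference of Irf7 differed between marrow and blood at 7 weeks, by 1.38 on the log2 scale in the test of the difference itself.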

How the results depend on the processing

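Of 43 called differences of single members, 21 were called in every alternative run, and none changed sign in any of the 512 alternative values of these 43, of which 407 kept the call and 105 lost it. Of 149 differences that were not called, 20 gained a call in at least 1 alternative. The counts of members called moved by more than 1.5 times as follows. With the compared groups alone, which leaves fewer libraries to estimate the spread, they were 3 for cMoP against MDP, 3 for Ly6Cint against Ly6C+, 0 for Ly6C- against Ly6Cint and 1 for Ly6C- against Ly6C+ in blood at 7 weeks. In the knockout table the same fit gave 0 for cMoP against MDP, 5 for marrow Ly6C+ against cMoP, 0 for wt Ly6Cint against Ly6C+, 2 for wt Ly6C- against Ly6C+ and 0 for ko against wt Ly6Cint, and in the transfer libraries 0 for spleen grafts and 0 for host blood. In edgeR on recovered reads they were 3 for cMoP against MDP, 0 for Ly6C- against Ly6Cint and 2 for the marrow and blood steps at 7 weeks, and 0 for wt Ly6Cint against Ly6C+. With quantile scaling they were 4, 0 and 2 for those 3 comparisons at 7 weeks, 0 for ko against wt Ly6Cint, 1 for 24 h blood grafts against before and 1 for host spleen. With no filter they were 0 for Ly6C- against Ly6Cint at 7 weeks and 0 for host blood, and at a pseudocount of 0.25 they were 1 for Ly6C- against Ly6Cint and 0 for ko against wt Ly6Cint. With the replicate number as a block they were 0 for Ly6C- against Ly6Cint at 7 weeks and 1 for host spleen. The causes were not tested.

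Leaving out 1 library gave counts of 1 to 2 for cMoP against MDP, 0 to 5 for Ly6C- against Ly6Cint and 2 to 4 for marrow Ly6C- against Ly6C+ at 7 weeks. In the knockout table they were 0 to 1 for cMoP against MDP, 1 to 2 for wt Ly6C- against Ly6C+, and 0 throughout for wt Ly6Cint against Ly6C+ and for ko against wt Ly6Cint. In the transfer table they were 0 to 1 for 24 h grafts against before in blood and in spleen, 0 to 2 for 48 against 24 h in blood, 0 to 1 in spleen, and 0 throughout for host blood. The labels do not say whether libraries with the same replicate number or letter are related. Their deviations from the group means correlated at -0.30 to 0.38 over 67 pairs at 7 weeks, with 8 above 0.1. In the knockout table the range was -0.32 to 0.41 over 56 pairs, with 8 above 0.1. In the transfer table it was -0.03 to 0.08 over 105 pairs. These correlations do not settle whether libraries were paired. Groups of 2 libraries and the low read counts of Irf4 in progenitors limit precision.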
